A study of Mus musculus with 2 samples.

Results

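Oxidative phosphorylation is carried out by 5 protein complexes of the inner mitochondrial membrane, and 95 of the 27998 genes counted in these data were taken as their genes by symbol: 98 symbols began with Ndufa, Ndufb, Ndufc, Ndufs, Ndufv, Uqcr, Cox4i, Cox5, Cox6, Cox7, Cox8 or Atp5, were Sdha to Sdhd, or began with mt-Nd, mt-Co, mt-Atp or mt-Cyt, with assembly factors of the Ndufaf series left out. Cox7b2, Cox8b and Cox8c had no UMI (unique molecular identifier, the tag that marks 1 captured RNA molecule) and were dropped. Prefixes are an imperfect guide to subunits: they leave out Cyc1, the cytochrome c1 of complex III, and place Atp5s and Atp5sl, which are not core subunits, in complex V. Of the 95 that remained, 82 lie in the nuclear genome and 13 in the mitochondrial genome, marked mt-. The nuclear genes comprised 36 of complex I, 4 of complex II, 8 of complex III, 17 of complex IV and 17 of complex V. The cells were CD45+ leukocytes collected on magnetic beads from TSA tumors, which grew subcutaneously in female BALB/c mice after injection of this syngeneic mammary carcinoma line. One library came from untreated mice and the other from mice that drank 0.5% nicotinamide (NAM, a vitamin B3 form and NAD precursor) for 10 days. Each was made from the pooled cells of 3 mice, so there is 1 library per group, and a difference between libraries and an effect of NAM cannot be told apart. The question asked of these genes was whether their RNA levels, and the balance between the nuclear and the mitochondrial part, differed between the NAM and the untreated library in each kind of tumor-infiltrating leukocyte.

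Complexes I and II pass electrons from NADH and succinate to ubiquinone, complex III hands them to cytochrome c, and complex IV (cytochrome c oxidase) reduces oxygen. Complexes I, III and IV pump protons, and complex V (ATP synthase) uses the resulting gradient to make ATP. Complex II is encoded by nuclear genes alone, whereas the other complexes combine nuclear subunits with a core that is transcribed inside mitochondria from a circular genome. Complex I consumes NADH, the reduced form of the coenzyme that cells can rebuild from nicotinamide. In activated T cells and in macrophages the balance between this pathway and glycolysis is known to shift with the state of the cell.

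The untreated library held 2922 cells and 29161823 UMIs, and the NAM library 3276 cells and 32090120 UMIs. Cells were assigned to groups by UMIs of marker genes: 2119 untreated and 2340 NAM macrophages, 192 and 219 monocytes, 77 and 89 dendritic cells (DCs), 202 and 266 T cells, and 55 and 33 natural killer (NK) cells. The summed level of 5 macrophage markers was 16557 and 15605 UMIs per 1000000 UMIs of the group (CPM) in macrophages against 502 to 5410 in the other gated groups. Hemoglobin genes reached 5692 CPM in monocytes and 4757 CPM in T cells of the NAM library against 19.5 and 20.9 CPM in the untreated one. They were also higher in NAM macrophages (19.5 and 370 CPM), NK cells (24.9 and 75.3 CPM) and DCs (21.0 and 41.3 CPM), and their part in the results for these groups was not tested. Doublets were not removed, and 11 cell barcodes occurred in both libraries. The highest share of mt- UMIs in any cell was 5.30% (untreated) and 5.85% (NAM), and 61 NAM cells (1.86%) lay above the untreated maximum. Intervals are exact at the 95% level and describe counting error alone, so they leave out how cells, mice and libraries vary. No test was possible with 1 library per group, and a sum over all cells cannot separate a change in cell numbers from a change in RNA per cell.

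Across groups, nuclear genes were lowest in monocytes and closer together in the other gated groups, whereas mt- genes varied more. The 82 nuclear genes together took 21826 CPM in untreated monocytes, 24120 in DCs, 26563 in T cells, 26910 in NK cells and 27334 in macrophages. The intervals of NK cells (26346 to 27483) overlapped those of T cells and macrophages, so these neighbours did not differ beyond counting error. In the NAM library monocytes were again lowest at 23009 CPM, followed by DCs at 25932, macrophages at 27679, T cells at 29291 and NK cells at 30243, of which the last pair had overlapping intervals. In these sums macrophages stood highest in the untreated library, though not beyond counting error against NK cells. T cells and NK cells lay above them in the NAM library. Untreated macrophages with 0 to 4 UMIs of Ctsk and Acp5 (classes given further on) had 25917 CPM, below T cells and NK cells. In the median untreated cell the share, on the same scale, was 25138 in macrophages, 25488 in T cells and 27042 in NK cells. A change of order between the libraries is therefore not established. For the 13 mt- genes the order was the same in both libraries. Untreated macrophages had 25883 CPM, DCs 22389, T cells 20453, NK cells 18017 and monocytes 16291, and the corresponding NAM values were 27948, 23328, 21598, 20214 and 18708. Macrophages therefore held 0.947 and 1.01 mt- UMIs per nuclear UMI, against 0.670 and 0.668 in NK cells.

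**Figure D1:**
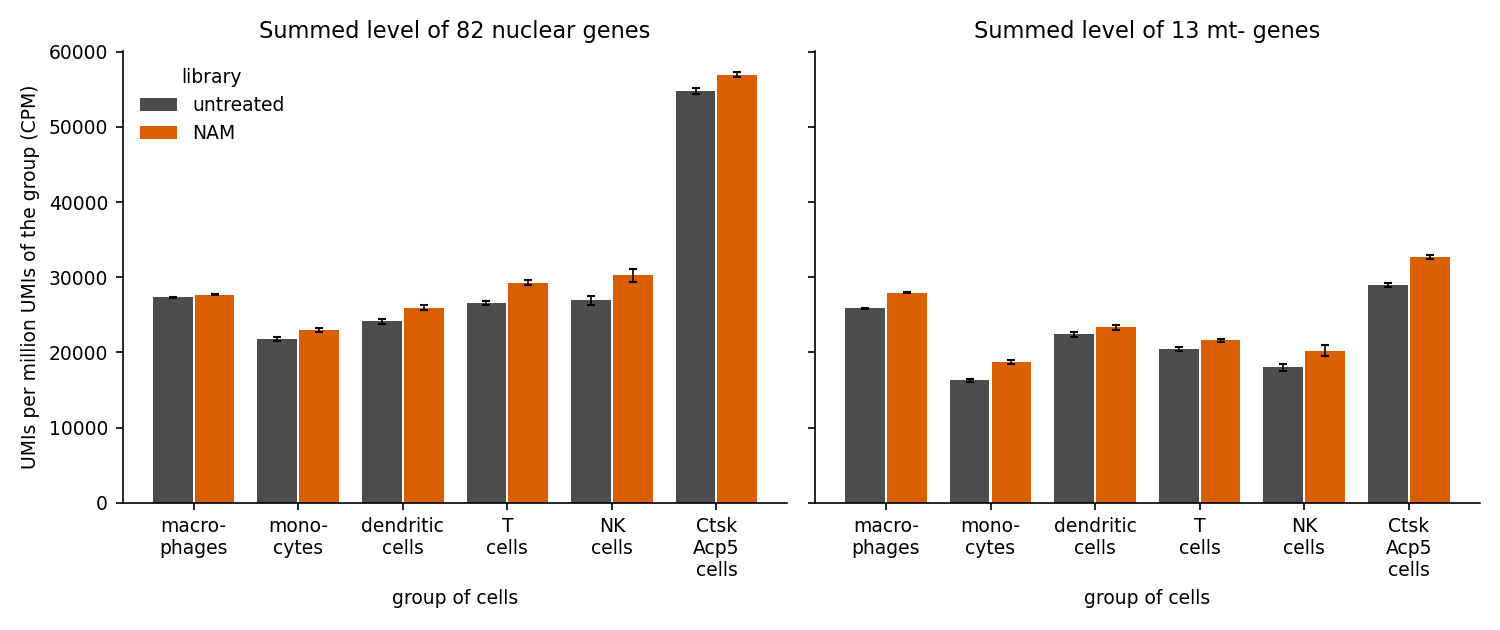
Summed CPM of the 82 nuclear genes (left) and the 13 mt- genes (right) in each group of cells, untreated library in gray and NAM library in orange, 1 library each; error bars are exact 95% Poisson intervals. NAM bars exceed untreated bars in all 6 groups on both sides, and nuclear genes of Ctsk Acp5 cells (54738 and 56907 CPM) stand above all other groups.

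Compared with the untreated library, nuclear genes were slightly higher in the NAM library in every gated group. On the scale of UMI totals the difference was smallest in macrophages and largest in lymphocytes. In macrophages the level moved from 27334 to 27679 CPM (log2 ratio 0.018, 0.013 to 0.023) or 1.26%. Monocytes moved from 21826 to 23009 CPM (5.42%) and DCs from 24120 to 25932 CPM (7.51%). T cells moved from 26563 to 29291 CPM (log2 ratio 0.14, 0.12 to 0.16) or 10.3%. NK cells moved from 26910 to 30243 CPM (log2 ratio 0.17, 0.12 to 0.22) or 12.4%, over 55 and 33 cells. Scaling by the median gene in place of the UMI total brought T cells to 0.086, NK cells to 0.087, macrophages to 0.053 and DCs to 0.042, so the groups lay closer together and DCs, not macrophages, were lowest on that scale. The T-cell interval stayed clear of 0 on both scales. Hemoglobin genes also differed between the libraries in these groups, as given above.

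The mt- genes showed another pattern, with monocytes at the top. Their level was 7.98% higher in NAM than in untreated macrophages (log2 ratio 0.11, 0.11 to 0.12) and 14.8% higher in monocytes (0.20, 0.17 to 0.23). The log2 ratio was 0.059 in DCs (0.033 to 0.086), 0.079 in T cells (0.053 to 0.10) and 0.17 in NK cells (0.10 to 0.23). In macrophages and monocytes mt- genes moved more than nuclear genes, by 0.093 and 0.12 on the log2 scale, whereas in DCs and T cells they moved less, by 0.045 and 0.062. Leaving out the cells above the untreated maximum of mt- share lowered the mt- ratio in macrophages to 0.087 and in DCs to 0.037. With median-gene scaling the DC ratio was -0.0031, and the T-cell ratio was 0.023 with an interval that included 0, so no direction can be given for mt- genes in DCs or T cells.

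The sum of mt- genes combined opposite directions of single genes. The most abundant were all higher in NAM macrophages. Transcripts of mt-Nd1, a membrane subunit of complex I, moved from 2012 to 2427 CPM (log2 ratio 0.27, 0.25 to 0.29), and mt-Cytb, the cytochrome b of complex III, from 2260 to 2513 CPM (0.15, 0.14 to 0.17). Levels of mt-Atp6, the proton channel subunit of complex V, moved from 7503 to 8310 CPM (0.15, 0.14 to 0.16). For mt-Nd4, another membrane subunit of complex I, they were 1109 and 1204 CPM (0.12, 0.093 to 0.14). The 3 catalytic core genes of complex IV moved less, with log2 ratios of 0.079 for mt-Co1 (4614 to 4874 CPM), 0.091 for mt-Co2 (2691 to 2867 CPM) and 0.059 for mt-Co3 (4891 to 5097 CPM). In the opposite direction, mt-Atp8, a small membrane subunit of complex V, was at 50.4 CPM in untreated and 27.5 CPM in NAM macrophages (log2 ratio -0.88, -1.01 to -0.74). Values for mt-Nd3 were 161 and 102 CPM (-0.65, -0.72 to -0.58), and for mt-Nd4l 41.8 and 31.3 CPM (-0.41, -0.55 to -0.28); both encode membrane subunits of complex I. Counts of mt-Nd2 gave 442 and 391 CPM (-0.18, -0.22 to -0.14), while mt-Nd5 stood at 103 and 104 CPM. Counts of mt-Nd6, which alone among these genes is encoded on the other strand, were 4.84 and 2.69 CPM (-0.85, -1.31 to -0.40). The genes with an interval below 0 were thus the sparse ones, and those with an interval above 0 each exceeded 1000 CPM.

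The direction of several mt- genes recurred across cell groups. Log2 ratios of mt-Nd1 ran from 0.19 in DCs to 0.44 in NK cells and 0.49 in Ctsk Acp5 cells (defined further on), and all 6 intervals lay above 0, as they did for mt-Cytb and mt-Atp6. All 6 ratios of mt-Nd3 lay below 0, from -0.82 in T cells and monocytes to -0.35 in NK cells, and 5 of the 6 intervals excluded 0. In T cells mt-Nd3 went from 179 to 102 CPM and mt-Atp8 from 42.9 to 21.2 CPM. Within macrophages, mt-Atp8 lay between -0.91 and -0.83 in the 3 subgroups compared (cycling, Vcam1-type and other macrophages), and mt-Nd3 between -0.78 and -0.48. These signs held with median-gene scaling, and mt-Nd3 and mt-Atp8 in macrophages also held at a common maximum of mt- share (-0.67 and -0.91). Others did not keep 1 sign. The ratio of mt-Nd4l was above 0 in monocytes (0.44) and T cells (0.03) and that of mt-Nd2 above 0 in NK cells (0.23), with intervals including 0, and mt-Co2 had 3 of 6 ratios below 0 with median-gene scaling. Only mt-Co1 had opposite signs with intervals clear of 0, at 0.12 in monocytes (2857 to 3112 CPM) and -0.066 in T cells (3773 to 3605 CPM).

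**Figure D2:**
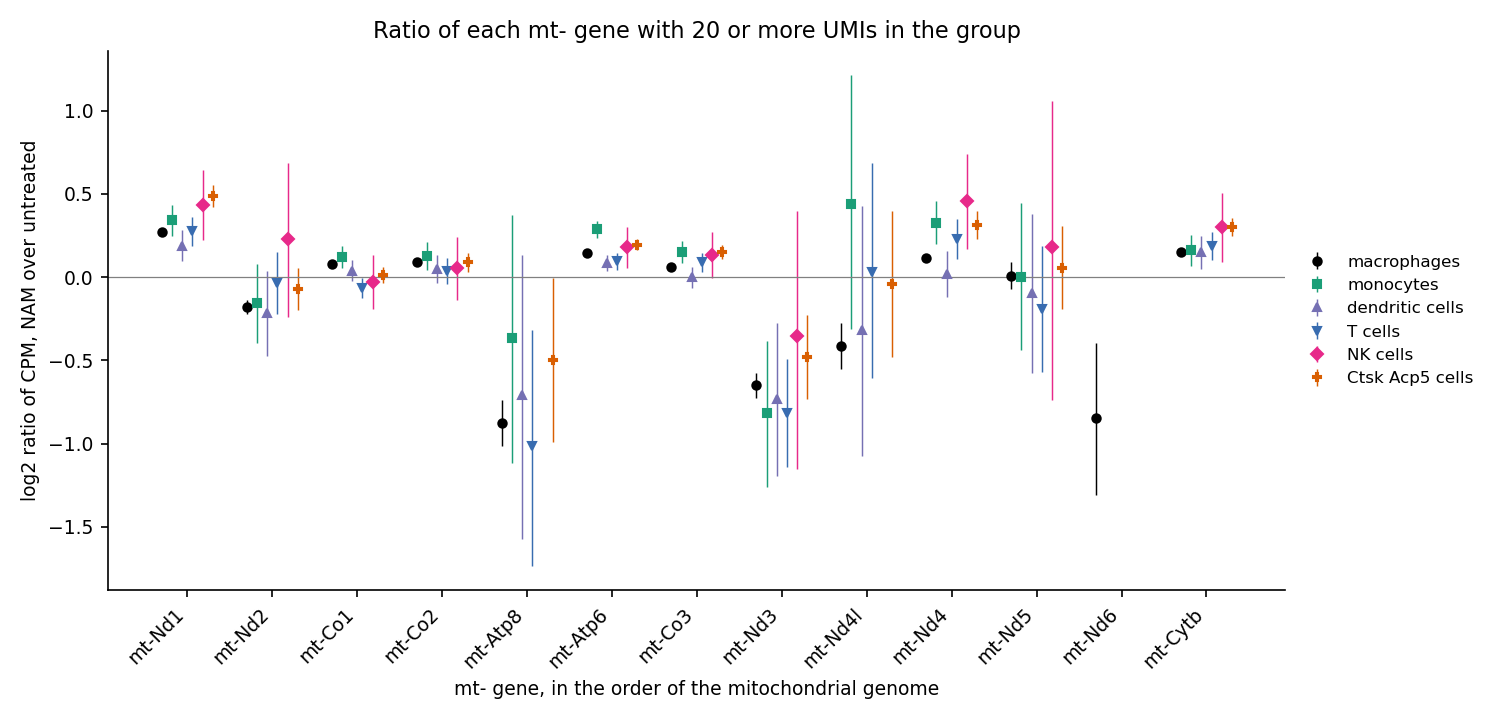
Log2 ratio of CPM, NAM over untreated library, of each mt- gene with 20 or more UMIs in the group, ordered along the mitochondrial genome, with exact 95% intervals as bars; symbols and colors mark the 6 groups of cells. Abundant genes such as mt-Nd1 and mt-Cytb lie above 0 in all groups, and mt-Nd3 (-0.82 to -0.35) and mt-Atp8 lie below 0 wherever they are drawn.

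The positions of these genes bear on how their UMIs are counted. Mitochondrial RNAs are cut from long precursors, and mt-Atp8 with mt-Atp6, like mt-Nd4l with mt-Nd4, stay joined in a single messenger RNA. In GENCODE vM21 (mm10 coordinates) mt-Atp8 occupies chrM:7766-7969 on the plus strand and its last 43 bases are also the start of mt-Atp6 (chrM:7927-8607). Reading frames of mt-Nd4l (chrM:9877-10173) and mt-Nd4 (chrM:10167-11544) share 7 bases. These libraries were read from the 3′ end of polyadenylated RNA, and the upstream gene of each pair had far fewer counts than the downstream gene, with 50.4 CPM of mt-Atp8 against 7503 CPM of mt-Atp6 in untreated macrophages. The whole mt-Atp8 reading frame is printed to show the shared bases, which are in capitals, and the last 150 bases of mt-Nd3 (chrM:9459-9806) and mt-Nd1 (chrM:2751-3707) are printed as the 3′ coding ends of a lower and a higher gene of complex I; the sequence is that of the reference mouse, not of BALB/c.
mt-Atp8: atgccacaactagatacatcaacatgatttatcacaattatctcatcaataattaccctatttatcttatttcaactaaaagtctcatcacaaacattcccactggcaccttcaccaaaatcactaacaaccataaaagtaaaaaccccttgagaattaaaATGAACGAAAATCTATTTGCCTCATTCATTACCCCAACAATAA
mt-Nd3: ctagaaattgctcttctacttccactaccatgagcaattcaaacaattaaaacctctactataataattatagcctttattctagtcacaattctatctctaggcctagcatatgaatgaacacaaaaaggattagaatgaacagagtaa
mt-Nd1: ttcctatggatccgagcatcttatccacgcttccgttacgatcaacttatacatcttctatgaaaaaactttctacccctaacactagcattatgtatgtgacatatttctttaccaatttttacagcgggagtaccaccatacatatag
Near-identical copies elsewhere in the genome can take reads from several of these genes. Windows of 60 bases were taken from the last 400 bases of each transcript alone, here and below. Of these windows, 100% of mt-Co1 and mt-Co2, 99.1% of mt-Atp6 and 99.7% of mt-Co3 also occur in other annotated genes. For mt-Nd3 the share was 97.9% and for mt-Nd4l 98.7%. The levels of these genes are uncertain for that reason. No such window was shared for mt-Atp8, mt-Nd1, mt-Nd4, mt-Nd6 or mt-Cytb. Among the shared were mt-Nd3 and mt-Atp6, and among the unshared mt-Atp8 and mt-Nd1. The part of such copies in the ratios was not tested.

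Gene by gene, few nuclear members moved beyond 1.2-fold in macrophages, and more did in DCs, T cells and NK cells, mostly upward. Relative counting error was larger in the smaller groups, with 22726863 and 24887651 UMIs in macrophages and 321145 and 159440 in NK cells. Its part in the number of genes past the fold was not tested. Counting only genes with 200 or more UMIs in a group, 0 of 79 members were higher and 3 lower in NAM macrophages, against 5.59% higher and 15.6% lower among all 8794 genes counted. In monocytes 6 of 69 were higher and 0 lower, beside 14.3% and 15.7% of all genes. In DCs 17 of 70 (24.3%) were higher and 2 lower, beside 19.9% and 15% of all genes. In T cells 17 of 72 (23.6%) were higher and 1 lower, beside 17.9% and 11.7% of all genes, and in NK cells 8 of 24 (33.3%) were higher and 0 lower, beside 17.4% and 14.9%. On the scale of UMI totals the share of members past the fold upward was therefore above that of all genes in DCs, T cells and NK cells and below it in macrophages and monocytes, and the share past it downward was below that of all genes in these 5 groups. With median-gene scaling, T cells had 7 higher and 2 lower members beside 11.0% and 15.4% of all genes, so on that scale the upward share in T cells was not above that of all genes. The members' median log2 ratio exceeded the median of all counted genes in each group: 0.029 against -0.035 in macrophages, 0.071 against 0.0040 in monocytes, 0.13 against 0.062 in DCs, 0.16 against 0.054 in T cells and 0.22 against 0.083 in NK cells.

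**Figure D3:**
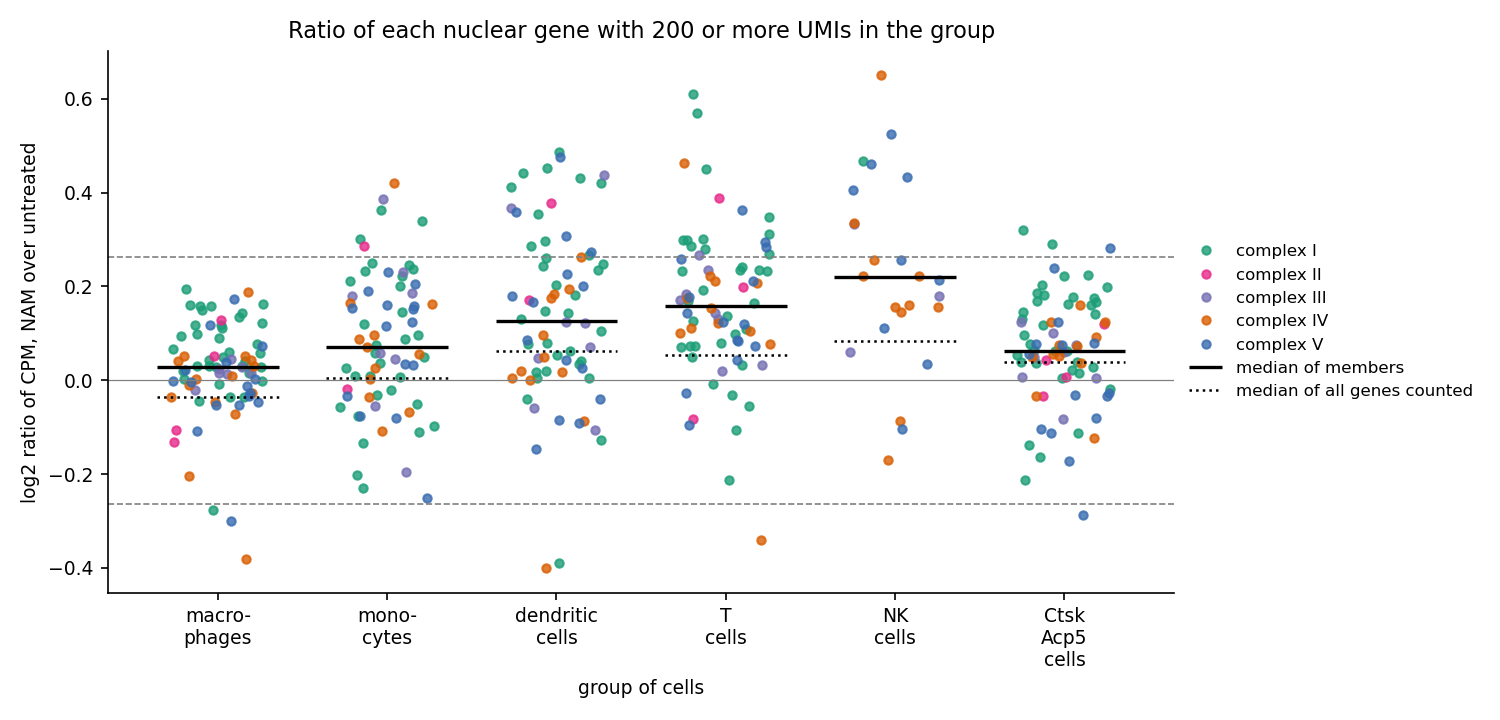
Log2 ratio of CPM, NAM over untreated library, of every nuclear gene with 200 or more UMIs in the group, colored by complex; solid bars are the medians of the members, dotted bars those of all genes counted, and dashed lines mark 1.2-fold. Points crowd between the dashed lines in macrophages (76 of 79) and spread upward in dendritic, T and NK cells, where fewer UMIs were counted.

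Complex I, the NADH dehydrogenase, had the highest nuclear ratio of the 5 complexes in macrophages. Its 36 nuclear genes moved from 8038 to 8369 CPM there (log2 ratio 0.058, 0.049 to 0.067) and from 6767 to 7571 CPM in DCs (0.16, 0.11 to 0.21). In T cells they moved from 7461 to 8357 CPM (0.16, 0.12 to 0.20). Ndufs3, a core subunit of the matrix arm, went from 101 to 154 CPM in T cells (log2 ratio 0.61, 0.27 to 0.96), and its ratio was 0.16 in macrophages (146 to 162 CPM). In DCs it was 0.005 and changed sign with median-gene scaling, and 60.7% of its 60-base windows occur in other genes, so its level is uncertain. Ndufb2, an accessory membrane-arm subunit, went from 123 to 182 CPM in T cells (0.57, 0.26 to 0.89). Ndufs7, which carries an iron-sulfur cluster next to the ubiquinone site, went from 114 to 159 CPM in DCs (0.49, 0.13 to 0.85) and from 192 to 214 CPM in macrophages (0.16, 0.10 to 0.22). Ndufa8, an accessory subunit, followed with 133 to 183 CPM in DCs (0.45, 0.12 to 0.79) and 194 to 217 CPM in macrophages. Ndufa13 was higher in all 6 groups, from 351 to 388 CPM in macrophages (0.14, 0.10 to 0.19) and from 482 to 569 CPM in T cells (0.24, 0.08 to 0.40). In macrophages Ndufv3, an accessory subunit of the NADH-binding module, had a log2 ratio of 0.19 (241 to 276 CPM), and Ndufa6 had its largest ratio in monocytes at 0.36 (283 to 364 CPM). Not all members shared this direction. Ndufb3 was at 166 and 127 CPM in DCs (-0.39, -0.74 to -0.05) but at 150.5 and 149.6 CPM in macrophages, and Ndufa2, the most abundant nuclear gene of the complex in macrophages, stood at 515 and 502 CPM there. Ndufs8, a core subunit with iron-sulfur clusters, had a ratio of -0.23 in monocytes, and Ndufv1, which holds the NADH site, of -0.11 in T cells (90.5 and 84.0 CPM), both with intervals that included 0.

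Ndufa3, Atp5k and Sdhc were the nuclear genes with 20 or more UMIs in each group and a ratio below 0 in all 6. Ndufa3, an accessory membrane-arm subunit of complex I, went from 375 to 310 CPM in macrophages (log2 ratio -0.28, -0.32 to -0.23), from 388 to 335 CPM in T cells (-0.21) and from 312 to 271 CPM in monocytes (-0.20). Atp5k, a small membrane subunit of ATP synthase, went from 417 to 338 CPM in macrophages (-0.30, -0.34 to -0.26), from 322 to 271 CPM in monocytes (-0.25) and from 797 to 654 CPM in Ctsk Acp5 cells (-0.29). In these 3 macrophage subgroups the ratios ran from -0.27 to -0.24 for Ndufa3 and from -0.33 to -0.22 for Atp5k. Of 84 members with 20 or more UMIs in all 6 groups, 4 lay below 0 in all 6 (Sdhc, Atp5k, Ndufa3 and mt-Nd3) with either scaling, or 4.76% beside 7.24% of the 2736 genes with as many UMIs. On the scale of UMI totals 28 members (33.3%) lay above 0 in all 6, beside 9.03% of those genes. With median-gene scaling 14 did, and 12 did under both scalings. No share over all genes was computed for the latter counts, so they cannot be compared with all genes. In the last 400 bases of their transcripts, neither Ndufa3 nor Atp5k shared a 60-base window with another annotated transcript. Their promoters, from 250 bases before to 50 bases after the RefSeq start in GRCm38.p6, are shown because both lay below 0 in every group; Atp5k spans chr5:108434350-108434649 on the minus strand and Ndufa3 chr7:3617123-3617422 on the plus strand. Capitals mark a match to the palindromic motif of nuclear respiratory factor NRF1 or to CCGGAAG, the ETS-type site, on either strand.
Atp5k: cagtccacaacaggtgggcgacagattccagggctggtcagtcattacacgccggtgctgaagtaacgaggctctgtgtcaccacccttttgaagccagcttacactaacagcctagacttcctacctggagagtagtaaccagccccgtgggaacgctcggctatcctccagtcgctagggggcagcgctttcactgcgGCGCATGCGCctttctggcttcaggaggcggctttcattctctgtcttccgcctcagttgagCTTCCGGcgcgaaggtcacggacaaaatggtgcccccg
Ndufa3: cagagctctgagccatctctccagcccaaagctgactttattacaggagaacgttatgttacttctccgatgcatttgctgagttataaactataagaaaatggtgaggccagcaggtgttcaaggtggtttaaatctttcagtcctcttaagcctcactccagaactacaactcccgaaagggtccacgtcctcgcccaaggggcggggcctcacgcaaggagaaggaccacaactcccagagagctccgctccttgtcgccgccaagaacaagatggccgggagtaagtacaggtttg
The Atp5k window held both motifs, and the Ndufa3 window neither. Over 74 RefSeq promoters of 68 nuclear members, 24.3% held the NRF1 motif against 4.60% of all 32851 mouse promoters of the same length, and 21.6% held the ETS letters against 8.86%. The core motif of YY1 occurred in 9.46% against 0.852%, and TATAAA in 8.11% against 13.6%. A match describes the letters alone, and its link to the ratios was not tested.

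Complexes II and III had ratios near 0 in macrophages and above 0 in T cells on the scale of UMI totals. In DCs complex III stood at 2591 and 2723 CPM (0.072, interval including 0). The 4 genes of succinate dehydrogenase were at 692 and 706 CPM in macrophages (log2 ratio 0.031, interval reaching 0), at 477 and 540 CPM in T cells (0.18, 0.015 to 0.34) and at 518 and 598 CPM in DCs (0.21, 0.034 to 0.38). With median-gene scaling the latter ratios were 0.12 and 0.14, and both intervals then included 0. In NK cells they stood at 489 and 439 CPM (-0.16, interval including 0). Sdhb, the iron-sulfur subunit and the most abundant of them in macrophages, went from 298 to 325 CPM in macrophages (0.13, 0.08 to 0.17), from 187 to 244 CPM in T cells (0.39, 0.13 to 0.65) and from 221 to 287 CPM in DCs (0.38, 0.12 to 0.64). Not all 4 genes shared this direction. Sdha, the catalytic subunit, was at 105 and 97.8 CPM in macrophages (-0.11) and at 94.3 and 89.0 CPM in T cells, and Sdhb was at 206 and 151 CPM in NK cells (-0.45, interval including 0). Sdhc, a membrane anchor, had ratios between -0.39 and -0.034 in the 6 groups, of which 1 interval excluded 0. The 8 nuclear genes of complex III moved from 3068 to 3098 CPM in macrophages (0.014, interval reaching 0), from 2297 to 2520 CPM in monocytes (0.13, 0.060 to 0.21) and from 2908 to 3211 CPM in T cells (0.14, 0.076 to 0.21). Uqcrfs1, the Rieske iron-sulfur protein, differed most in monocytes, with 191 and 250 CPM (0.39, 0.14 to 0.64), and stood at 215 and 218 CPM in macrophages. Uqcrb, the most abundant nuclear gene of the complex in macrophages, was at 582 and 594 CPM there and at 428 and 504 CPM in T cells (0.23, 0.06 to 0.41). Uqcrh, the hinge protein at the cytochrome c docking site, separated cell groups more than libraries, with 400 and 455 CPM in monocytes and 806 and 889 CPM in T cells. Copies elsewhere in the genome hold 35.8% of the 60-base windows of Uqcrb, whose level is uncertain for that reason.

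Complex IV held Cox7a2l, which moved in opposite directions in different groups. The 17 nuclear genes of the complex, with Ndufa4 counted here because its product is part of cytochrome c oxidase, moved from 8266 to 8319 CPM in macrophages (0.009) and from 8068 to 8839 CPM in T cells (0.13, 0.09 to 0.17). Cox7a2l, whose product joins complexes III and IV into supercomplexes, went from 631 to 499 CPM in T cells (-0.34, -0.50 to -0.19) and from 533 to 404 CPM in DCs (-0.40, -0.59 to -0.21), but from 243 to 326 CPM in monocytes (0.42, 0.20 to 0.64). Macrophages stood at 417 and 407 CPM. In the untreated library the 5 gated groups thus spanned 2.59-fold for this gene, from monocytes to T cells, and in the NAM library the range narrowed to 326 CPM in monocytes and 521 CPM in NK cells. Ndufa4 went from 620 to 972 CPM in NK cells (0.65, 0.34 to 0.96) and from 585 to 660 CPM in T cells, and was at 476 and 472 CPM in macrophages. Cox6a1, a regulatory subunit, went from 468 to 644 CPM in T cells (0.46, 0.30 to 0.62) and was above 0 in all 6 groups. Cox4i1, the most abundant gene of the complex in macrophages, moved from 1227 to 1263 CPM there (0.043) and from 1049 to 1323 CPM in NK cells (0.33, 0.08 to 0.59). Cox7c was at 853 and 826 CPM in macrophages (-0.047, -0.075 to -0.019; -0.012 with median-gene scaling) and at 767 and 888 CPM in T cells (0.21, 0.08 to 0.34), with 37.2% of its windows in pseudogenes. Cox8a, which had the lowest ratio in NK cells among members of the complex with 200 or more UMIs there, stood at 1199 and 1066 CPM there (-0.17, interval including 0) and at 974 and 980 CPM in macrophages.

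Tissue-specific isoforms of complex IV were sparse beside their common forms. In macrophages the muscle and heart isoform Cox7a1 made up 3.58% and 3.06% of the Cox7a1 and Cox7a2 UMIs, and Cox6a2 made up 0.734% and 0.512% with Cox6a1. The testis isoform Cox6b2 made up 0.872% and 0.653% with Cox6b1, and the lung isoform Cox4i2 1.03% and 1.14% with Cox4i1. Cox4i2 reached 12.8 and 14.5 CPM in macrophages (0.19, interval including 0) and 20.3 and 20.9 CPM in those high in Vcam1 and Dnase1l3. No UMI of it occurred in Ctsk Acp5 cells of either library, which against a floor of 3 UMIs per library put it at least 6.26-fold lower there than in untreated macrophages and 8.89-fold lower in the NAM library. Cox6b2 was the lowest ratio of a counted nuclear gene in macrophages at -0.38 (-0.71 to -0.05), with 7.48 and 5.75 CPM. Ndufa4l2, a hypoxia-induced relative of Ndufa4, had 2 UMIs in 2 untreated cells and 33 UMIs in 9 NAM cells, of which 25 came from 2 cells, so most of its excess in the NAM library came from a pair of cells.

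Complex V was the complex with a ratio below 0 in macrophages. Its 17 nuclear genes stood at 7270 and 7187 CPM there (-0.017, -0.026 to -0.007; 0.018 with median-gene scaling, so the sign depends on the scaling). In T cells they moved from 7650 to 8344 CPM (0.13, 0.084 to 0.17), and in NK cells from 7704 to 9019 CPM (0.23, 0.13 to 0.32). Atp5j, the coupling factor of the stalk, was higher in all 6 groups, with 456 and 513 CPM in macrophages (0.17, 0.13 to 0.21) and 488 and 598 CPM in T cells (0.30, 0.14 to 0.46). Atp5g1, 1 of 3 genes for the identical c subunit of the rotor ring, went from 422 to 458 CPM in macrophages (0.12, 0.08 to 0.16) and from 323 to 449 CPM in DCs (0.48, 0.26 to 0.69), while Atp5g2 stood at 496 CPM in both libraries of macrophages and Atp5g3 at 194 and 190 CPM. Atp5g2 also ranged widely over gated groups, from 260 CPM in untreated monocytes to 567 CPM in untreated NK cells (2.18-fold), and from 306 to 677 CPM in the NAM library. Atp5h, a stalk subunit, ran from 338 CPM in untreated monocytes to 598 CPM in untreated NK cells. Copies elsewhere hold 36.6% of the windows of Atp5g1, 49.8% of Atp5g2 and 53.6% of Atp5h. Atp5e, the epsilon subunit, was lower in NAM macrophages at 620 against 668 CPM (-0.11, -0.14 to -0.08). Atp5d, the delta subunit, went from 436 to 627 CPM in NK cells (0.52, 0.14 to 0.91) and was at 346 and 352 CPM in macrophages. Atp5l, the most abundant gene of the complex in macrophages, was at 1026 and 1027 CPM there, and 77.7% of its 60-base windows occur in pseudogenes, so its level is uncertain.

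Within the lymphocyte and DC gates the upward shift was seen in most subgroups. CD8 T cells (100 and 154 cells) moved from 27060 to 29205 CPM of nuclear genes (log2 ratio 0.11, 0.08 to 0.14; 0.049 with median-gene scaling), and CD8-negative T cells (102 and 112 cells) from 26094 to 29404 CPM (0.17, 0.14 to 0.20; 0.095 with that scaling). The mt- genes of CD8-negative T cells stood at 19926 and 20614 CPM (0.049, but -0.028 with median-gene scaling), and nuclear and mitochondrial levels parted more there than in CD8 T cells (21010 and 22346 CPM, 0.089). Type 1 DCs, gated on Xcr1 and Clec9a, moved from 25273 to 27675 CPM (0.13, 0.10 to 0.16; 0.058 with median-gene scaling), whereas mature DCs, gated on Ccr7 and Fscn1, stood at 20708 and 20698 CPM over 14 and 16 cells. Among macrophages the nuclear level differed more between subgroups than between libraries. Cycling macrophages had 30420 and 31009 CPM of nuclear genes, and Vcam1-type macrophages, gated on Vcam1 and Dnase1l3, 23675 and 24528 CPM. The order was reversed for mt- genes, of which Vcam1-type macrophages had 27925 and 30028 CPM and cycling macrophages 25406 and 28112 CPM. Each Vcam1-type macrophage nuclear UMI was thus accompanied by 1.18 and 1.22 mt- UMIs, against 0.835 and 0.907 in cycling macrophages.

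The spread over single cells was wide beside the difference between libraries. In untreated T cells the nuclear share of a cell ran from 20836 (10th percentile) over 25488 (median) to 32378 UMIs per 1000000 (90th percentile), and in NAM T cells from 22170 over 27817 to 34393. In untreated macrophages it ran from 18581 over 25138 to 33363, and in NAM macrophages from 18892 over 25774 to 34520. The percentiles of T cells were all higher in the NAM library, and the ranges of the libraries overlapped over most of their width in both groups. For mt- genes the upper end moved most, from 38376 to 42286 at the 90th percentile of macrophages, where the libraries also differed in the highest share observed, as given above. At a share of 5.5% or more lay 0 untreated and 40 NAM cells. The study states a limit of 10% mitochondrial UMIs. Whether cells were removed above a lower limit that differed between libraries is not given in the sources used here. The part of such a limit in this difference was not tested. T cells carried 4513 and 4350 UMIs in the median cell and macrophages 9894 and 9874, so depth was close between libraries within these groups.

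**Figure D4:**
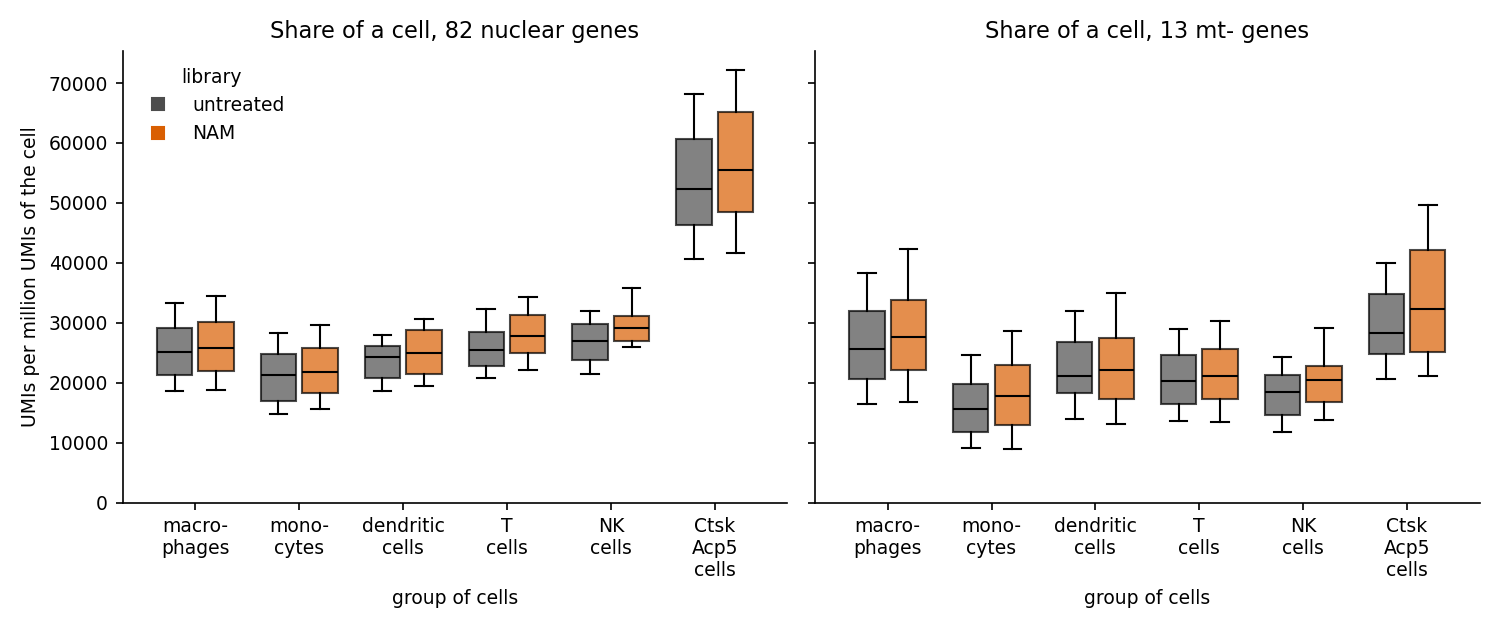
Share of UMIs of single cells taken by the 82 nuclear genes (left) and the 13 mt- genes (right), per 1000000 UMIs of the cell; boxes span the 25th to 75th percentile with the median as a line, whiskers the 10th to 90th percentile, untreated in gray and NAM in orange. Boxes of the libraries overlap in each group, and T-cell medians of nuclear genes are 25488 and 27817.

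The highest nuclear level of the groups compared was found in cells outside the gates that carried 20 or more UMIs of Ctsk (cathepsin K) and Acp5 (tartrate-resistant acid phosphatase) together, called Ctsk Acp5 cells here, a group added after the data had been seen. There were 96 such cells (untreated) and 121 (NAM), with 15464 and 14696 UMIs in the median cell, more than in macrophages. Their nuclear genes took 54738 CPM in the untreated library, 2.00-fold the macrophage level (interval of the log2 ratio 0.99 to 1.01), and 56907 CPM in the NAM library, 2.06-fold. The mt- genes were only 1.12-fold and 1.17-fold above macrophages, so these cells held 0.528 and 0.575 mt- UMIs per nuclear UMI. Complexes II and III had the largest folds, at 2.62-fold and 2.23-fold in the untreated library, and complex I least among nuclear genes at 1.79-fold. Uqcrc2, a core protein of complex III, was at 366 against 112 CPM in untreated macrophages (3.26-fold) and at 345 against 114 CPM in the NAM library. Atp5b, the catalytic beta subunit of ATP synthase, was at 2023 against 688 CPM (2.94-fold) and at 1977 against 664 CPM. Ndufv1, which binds NADH, was at 201 against 71.2 CPM (2.82-fold), and Sdha, which oxidizes succinate, at 281 against 105 CPM (2.67-fold). Of 78 nuclear members counted, 77 were above macrophages in both libraries, and 34 (43.6%) of the untreated and 40 (51.3%) of the NAM values exceeded 2-fold, beside 7.96% and 8.94% of all genes counted. The exception was Cox4i2, described above.

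The level was higher in classes of cells with more UMIs of Ctsk and Acp5, inside and outside the macrophage gate, except that NAM macrophages with 5 to 19 of them (26602 CPM) did not exceed those with 0 to 4. Ungated cells with 0 to 4 of these UMIs had 25312 CPM in the untreated library, those with 5 to 19 had 34132, those with 20 to 99 had 46456, and those with 100 or more had 58242. Macrophages with 100 or more, 30 untreated and 25 NAM cells, reached 56647 and 61849 CPM, against 25917 and 26606 CPM in macrophages with 0 to 4. Median depth rose along with these classes, from 6776 to 15675 UMIs in untreated ungated cells, and its part in the pattern was not tested. Between libraries the Ctsk Acp5 cells differed little for nuclear genes (log2 ratio 0.056, 0.043 to 0.069; 0.016 with median-gene scaling) and more for mt- genes (0.18, 0.16 to 0.20). The nuclear ratio was 0.030 with cells thinned to 3000 UMIs, where its interval included 0, and 0.080 without the deepest 2.5% of cells. In these cells 3 of 75 nuclear members were past 1.2-fold upward (Ndufa8, Ndufb6 and Atp5g1) and 1 downward (Atp5k), beside 11.5% and 9.84% of all genes, and with median-gene scaling there was 1 in each direction, beside 7.86% and 11.7%.

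**Figure D5:**
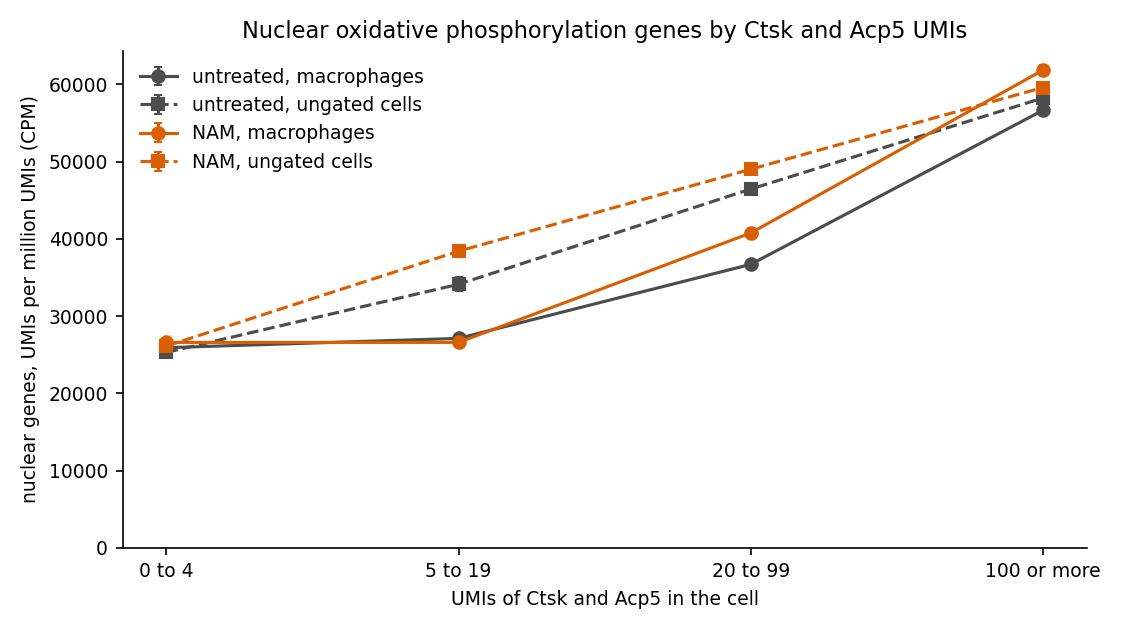
Summed CPM of the 82 nuclear genes (with exact 95% Poisson intervals) in classes of cells by their UMIs of Ctsk and Acp5 together, for macrophages (solid lines) and ungated cells (dashed lines) of the untreated (gray) and NAM (orange) library. All 4 lines start at 25312 to 26606 CPM and end between 56647 and 61849 CPM.

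Among other lists, the summed levels of the mitochondrial ribosome, the tricarboxylic acid cycle (1207 and 1338 CPM) and the carriers (763 and 861 CPM, with 0 of 3 counted genes past the fold) were higher in NAM T cells, whereas assembly factors (2061 and 2052 CPM) and regulators of mitochondrial transcription (268 and 257 CPM) were not. The counts past 1.2-fold that follow stand beside 17.9% upward and 11.7% downward of all genes in T cells and 5.59% and 15.6% in macrophages. The same shares were 19.9% and 15% in DCs, 14.3% and 15.7% in monocytes and 17.4% and 14.9% in NK cells. In Ctsk Acp5 cells they were 11.5% and 9.84%. Genes of the mitochondrial ribosome, which translates the mt- transcripts, had a median log2 ratio of 0.31 in T cells, where 18 of 27 counted genes were past 1.2-fold upward and 0 downward, and of 0.055 in macrophages, with 0 of 76 upward and 1 downward. Their summed level went from 5324 to 6401 CPM in T cells and from 5963 to 6198 CPM in macrophages. It was also higher in NAM DCs (4684 and 5288 CPM) and NK cells (5287 and 6147 CPM), so this was not confined to T cells. The summed level of the tricarboxylic acid cycle list was likewise higher in NAM DCs (1009 and 1147 CPM) but not in macrophages (1120 and 1116 CPM). Of the 16 genes of pyruvate dehydrogenase and the tricarboxylic acid cycle, which supply NADH and succinate, 3 of 5 counted were past the fold upward in T cells (median 0.32) and 0 of 16 in either direction in macrophages. Assembly factors of the complexes had 0 of 42 counted genes upward and 5 downward in macrophages (median 0.042) and 1 of 7 upward in T cells. Of the carrier list (cytochromes c and c1 and ubiquinone synthesis) 0 of 12 counted genes passed the fold in either direction in macrophages, and of 12 regulators of mitochondrial transcription 1 of 9 did, upward. Glycolytic genes, for comparison, went from 7014 to 8019 CPM in macrophages (5 of 14 upward, 1 downward). They went from 8022 to 9375 CPM in T cells (4 of 9 upward) and from 4774 to 6329 CPM in DCs (8 of 9 upward). In monocytes they stood at 8809 and 9819 CPM (3 of 11 upward) and in NK cells at 6548 and 6422 CPM (1 of 5 in each direction). In Ctsk Acp5 cells they stood at 8233 and 8314 CPM (0 of 8 in either direction). Their median log2 ratio exceeded that of the nuclear members in macrophages (0.21), monocytes (0.15), T cells (0.26) and DCs (0.47). It did not in NK cells (0.066) or Ctsk Acp5 cells (0.057 against 0.062). Cytosolic ribosomal protein genes stood at 256036 and 256267 CPM in T cells (279921 and 264397 in CD8 T cells, 233431 and 245578 in CD8-negative T cells). In Ctsk Acp5 cells of the untreated library the tricarboxylic acid cycle list was 2.91-fold above macrophages, the carriers 2.33-fold, the mitochondrial ribosome 1.55-fold, the cytosolic ribosome 1.49-fold and glycolysis 1.17-fold.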

How the data were processed

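RNA of single CD45+ cells was measured with the 10x Genomics 3′ assay in 2 libraries. The authors deposited raw UMI counts (genes by cells) from Cell Ranger and the mm10 genome; the annotation release is not given in the sources used here. All 2922 and 3276 deposited cells pass the study's stated filter (1000 genes, 3000 UMIs, at most 10% mitochondrial UMIs), so cells had been removed before deposit. Members, lists and gates were chosen with earlier results of these data known.

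Cells were gated on raw UMIs in a fixed order. T cells had 2 or more UMIs of Cd3d, Cd3e and Cd3g and NK cells 2 or more of Ncr1, Klrb1c and Klre1 with none of Cd3, both with under 10 UMIs of C1qa, C1qb and C1qc and at most 1 of Csf1r. DCs had 2 or more UMIs of Xcr1 and Clec9a, or Ccr7 with 2 or more of Fscn1, or 2 or more of Cd209a; macrophages had 10 or more of the C1q genes, and monocytes 2 or more of Ly6c2. Cycling cells had 2 or more UMIs of Mki67, Top2a, Birc5 and Ube2c; Vcam1-type macrophages had 2 or more of Vcam1 and Dnase1l3. A further macrophage subgroup, kept apart from these, is not reported here. Cells outside all gates with 20 or more UMIs of Ctsk and Acp5 were added as a group after seeing the data.

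Counts were summed per group and library and divided by the group's UMI total (CPM, exact Poisson interval). These are counts of molecules from the 3′ end and were not divided by gene length. Log2 ratios have an exact conditional binomial interval; for counts past 1.2-fold, genes needed 200 UMIs over both libraries and 0.5 UMIs were added. No test was made with 1 library per group. Named genes were all mt- members, the 3 largest and 3 smallest nuclear ratios in each gated group, the most abundant nuclear gene of each complex in macrophages, the 5 with the widest range over gated groups and the isoform sets; genes that led Ctsk Acp5 cells, together with Sdhc and Ndufb6 and the promoters printed, were added after their values were seen. Alternatives were another denominator, median-of-ratios (median-gene) scaling, cells thinned to 3000 UMIs, a mean over cells, doubled gates, and leaving out the deepest 2.5% of cells, cycling cells or, added later, cells high in Ctsk and Acp5 or above a common maximum of mt- share. Python 3.11.15, NumPy 2.4.6, SciPy 1.17.1 and pandas were used, and the ratio step was tested on simulated data. GENCODE vM21 matched 94 of 95 members by symbol, and promoters came from RefSeq.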

Additional observations from a re-analysis of the deposited data

Results flagged for a closer look

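The nuclear genes of complex V and 9 single members had ratios of opposite sign in different groups of cells, with both counting intervals clear of 0 on the scale of UMI totals. For each, the highest and lowest of these ratios are given. With 1 library per group the difference was not tested in any of these cases. Nuclear genes of complex V had a log2 ratio of 0.23 in NK cells and -0.017 in macrophages, and the macrophage value changed sign with median-of-ratios scaling. Cox7a2l had a ratio of 0.42 in monocytes and -0.40 in DCs. Cox7c had a ratio of 0.21 in T cells and -0.047 in macrophages, and the latter was -0.012 with median-of-ratios scaling. Atp5b had a ratio of 0.36 in DCs and -0.053 in macrophages, and Atp5o one of 0.36 in T cells and -0.047 in macrophages; the macrophage values were -0.018 and -0.012 with median-of-ratios scaling. Ndufa9 had a ratio of 0.58 in DCs and -0.47 in monocytes. In Ctsk Acp5 cells the ratio was -0.11 for Atp5d, -0.12 for Cox7b and -0.16 for Ndufa7. Against these, in the same order, stood 0.52 in NK cells, 0.21 in T cells and 0.25 in monocytes. The T-cell interval of Cox7b included 0 with median-of-ratios scaling. The ratio of mt-Co1 was 0.12 in monocytes and -0.066 in T cells. All 6 of these groups also had higher hemoglobin levels in the NAM library, most so in monocytes and T cells, and their part in these differences was not tested.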

How the results depend on the processing

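No paired analysis was possible because each group has 1 library, so no library could be left out either. The nuclear sum stayed higher in the NAM library in all 6 groups named in the alternatives (all cells, macrophages, monocytes, DCs, T cells and NK cells) under every setting run, and the mt- sum did so except in DCs. Median-of-ratios scaling gave nuclear log2 ratios of 0.074 in all cells, 0.053 in macrophages, 0.042 in DCs, 0.086 in T cells and 0.087 in NK cells, and mt- ratios of 0.15 in all cells, 0.15 in macrophages, 0.023 in T cells, 0.085 in NK cells and, reversed in sign, -0.0031 in DCs. Cells thinned to 3000 UMIs gave nuclear ratios of 0.055 in all cells, 0.041 in macrophages, 0.046 in monocytes and 0.13 in DCs, and mt- ratios of 0.11 in all cells, 0.10 in macrophages, 0.25 in monocytes and 0.026 in DCs. The mean of cell shares gave nuclear ratios of 0.056 in all cells, 0.036 in macrophages and 0.12 in T cells, and mt- ratios of 0.11 in all cells and 0.10 in macrophages. Without the deepest 2.5% of cells the nuclear ratios were 0.055 in all cells and 0.032 in macrophages, and the mt- ratios 0.11 and 0.099. In macrophages doubled gate minimums gave a nuclear ratio of 0.031, leaving out cycling cells gave 0.028 for nuclear and 0.098 for mt- genes, and leaving out cells with 20 or more UMIs of Ctsk and Acp5 gave 0.029 and 0.11, with 0.11 for mt- genes in all cells. At a common maximum of mt- share the mt- ratio was 0.097 in all cells and 0.087 in macrophages. The number of nuclear members lower in NAM macrophages was 5 at a minimum of 100 UMIs and 3 at 200. The cause of these shifts was not tested. The macrophage nuclear ratio is small enough that it ranged from 0.018 to 0.053 with the setting, and NK cells (55 and 33) and DC subgroups limit the precision of single genes. Counting intervals leave out variation between mice.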

Other observations

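Cells outside all gates and without high Ctsk and Acp5, 181 untreated and 208 NAM cells, had 26298 and 28308 CPM of nuclear members (log2 ratio 0.11, 0.086 to 0.13) and 19089 and 21112 CPM of mt- members (0.15, 0.12 to 0.17). All 5 complexes had nuclear ratios between 0.093 and 0.12 in these cells, so the difference was spread evenly over the complexes there, whereas in macrophages it ran from -0.017 for complex V to 0.058 for complex I. DCs gated on Cd209a, 28 and 33 cells, had 23383 and 24523 CPM of nuclear members (0.069, 0.019 to 0.12; 0.037 with median-gene scaling, where the interval included 0) and 22465 and 22213 CPM of mt- members (-0.016, -0.068 to 0.035).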
